A study of Mus musculus with 8 samples.

Results

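The smooth muscle and contractile actin genes described here are the alpha-actin gene Acta2, the actin-binding genes Tagln, Cnn1 and Cnn2, the tropomyosin genes Tpm1 and Tpm2, and the myosin genes Myl9 and Myh9. They were found by symbol, and all 8 were present among the 22200 genes of the deposited table. Expression was profiled in immortalised mouse embryonic fibroblasts (MEFs) of the C57BL/6 background, all labelled TAF4-/-, that is, without TAF4, part of the TFIID complex that starts transcription by RNA polymerase II. The untreated group held 3 libraries labelled 12 h. Retinoic acid (RA) was given for 12 h in 3 libraries and for 72 h in 2. No untreated library at 72 h was analysed here, so RA and time in culture cannot be told apart at 72 h. According to the methods, the mutant cells are 1 line (C3), made by Cre-mediated loss of a floxed allele from a parental line (C1), whereas the sample titles carry cl1. The gene annotated as Taf4a stood between 984 and 1449 normalised reads in the 8 libraries, and a value per gene does not tell whether the deleted part is read. The genotype is therefore given here as labelled. Whether the untreated cells received solvent, and whether the libraries of a group came from separate cultures, are not given in the sources used here. The p-values then measure only the spread between these libraries.

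Contractile force in smooth muscle and in activated fibroblasts comes from actin filaments pulled by non-skeletal myosin. Tropomyosin runs along the actin filament and controls access of myosin, calponin and transgelin bind and stabilise it, and myosin is switched on by phosphorylation of its regulatory light chain. Many genes of this programme are driven by the serum response factor SRF with its cofactors of the myocardin family. In fibroblasts the same genes build stress fibres, and Acta2 is the classical marker of the myofibroblast.

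All values are normalised reads per gene as deposited. They had been quantile normalised, so each value stands for the rank of the gene in its library, every library has the same total of 9442018.6, and the depth of the libraries is unknown. Tests used limma on log2(value + 1) over the 12673 genes with a mean of at least 10, which included all 8 genes. A gene is said below to have risen or fallen where its adjusted p was below 0.05, and to have been called where it also changed at least 2-fold. The libraries differed within their groups along a shared axis that held 50.1% of the within-group variance. Side 1 of this axis held replicates 1 and 2 of the untreated cells, replicate 3 of RA 12 h and replicate 2 of RA 72 h, and side 2 the other 4 libraries. Changes within the sides are given for each of the 8 genes that rose or fell. Of the fibroblast markers, Vim (82396 to 110139 normalised reads), Fn1, Col1a1 and Col1a2 were among the highest genes, and Thy1 lay near the floor of the table at 1 to 3.5. The defining smooth muscle genes Myh11 (8 to 19.5) and Myocd (7.12 to 19.2) were low in all 8 libraries. The 4 markers of vascular smooth muscle and pericytes summed to 174 to 188 in untreated cells, 121 to 124 at 12 h and 124 to 136 at 72 h. Cspg4 carried most of this sum (125 normalised reads in untreated cells, 72.7 and 83.7 in RA) and fell at both times, and Rgs5 was called lower at 72 h (log2 change -1.67). The other members, Notch3 (1.01 at 72 h, adjusted p 0.162) and Myh11 (0.32, adjusted p 0.692), lay in the other direction and did not pass the test. Sums of the 9 fibroblast markers were 236486 to 257140, 237850 to 248538 and 216575 to 222422, with Col3a1 called lower at 72 h (-1.43) and Pdgfra called higher at 12 h (1.49). Markers of skeletal and cardiac muscle (8 genes) summed to 42.8 to 65.8, 69.8 to 82.5 and 69.1 to 86.4. Of these 8, 7 had a mean under 10. The exception, Ryr1, had means of 23.1 in untreated cells, 39.9 at 12 h and 46.4 at 72 h. It did not pass the test at 12 h (log2 change 0.80, limma adjusted p 0.156). Epithelial markers summed to 21.8 to 37.5, 22.0 to 35.8 and 31.1 to 35.1, endothelial markers to 38.4 to 56.4, 46.9 to 70.1 and 59.2 to 63.8, and macrophage and blood markers to 40.1 to 79.1, 44.4 to 51.8 and 46.1 to 51.2. The part of other cells in the results was not tested, and in bulk RNA fewer cells of a type and less RNA per cell cannot be told apart.

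RA was followed by a large change in 1 of the 8 genes. Tpm1 was called higher at both times, rising 2.52-fold at 12 h and 2.71-fold at 72 h, while its close relative Tpm2 did not pass the test at either time. Myh9 rose at 12 h, Tagln fell at 72 h, and Myl9 fell at 72 h against both other groups, all by less than 2-fold. Acta2, Cnn1, Cnn2 and Tpm2 passed the adjusted p in none of the 3 comparisons. Thus 1 of 8 genes was called at 12 h, where 1.42% of all tested genes were (1.11% higher and 0.308% lower), and 1 of 8 at 72 h, against 3.67% of all (2.15% higher and 1.52% lower). Between 72 h and 12 h, 0 of the 8 were called by limma, against 1.50% of all genes (0.765% higher and 0.734% lower), and 2 of them had an unadjusted p under 0.05, as did 2393 of the 12673 genes tested. Without the fold minimum, 2 of 8 passed at 12 h (4.37% of all genes), 3 of 8 at 72 h (11.5%) and 1 of 8 between the times (5.84%, with 2.92% higher and 2.92% lower). The lowest library of one group exceeded the highest of the other for 3 of the 8 genes at 12 h (20.0% of all genes), 4 at 72 h (36.6%) and 3 between the times (37.3%). The median log2 change of the 8 genes was 0.20 at 12 h and 0.071 at 72 h, against -0.016 and -0.020 over all genes tested.

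**Figure D1:**
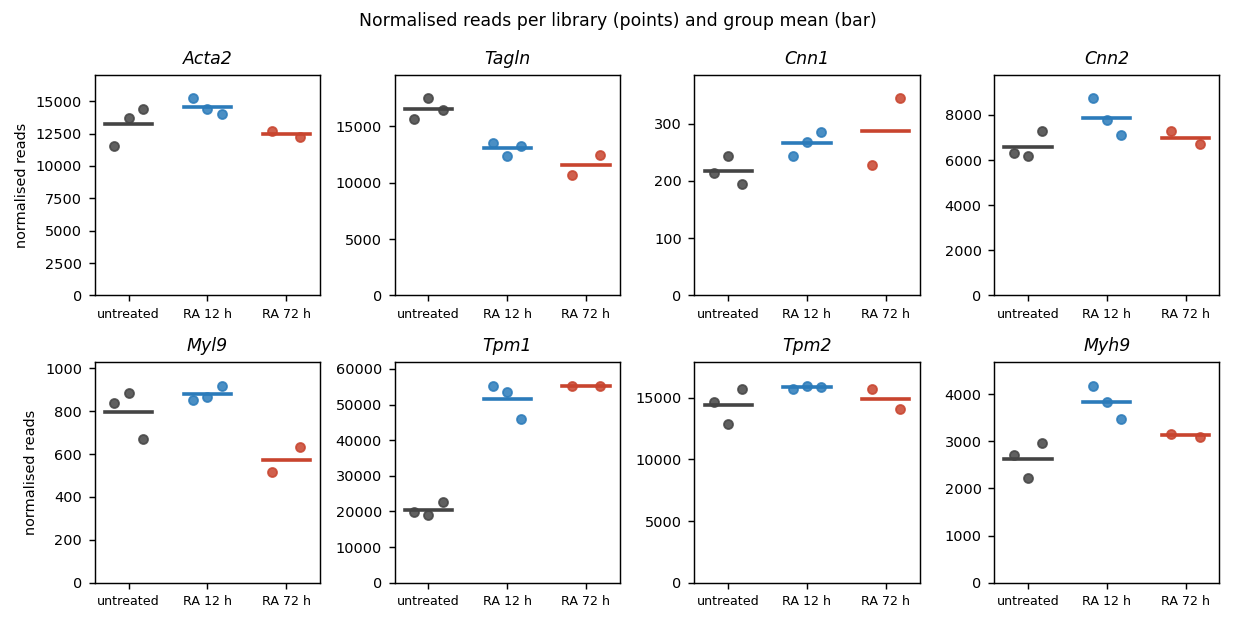
Normalised reads (vertical axes, from 0, a scale of its own for each gene) of the 8 genes in the 3 untreated, 3 RA 12 h and 2 RA 72 h libraries, with points for libraries and bars for group means. Tpm1 stands apart, with all 5 RA libraries between 45846 and 55334 and the untreated libraries between 18923 and 22547.

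The levels of the 8 genes covered a wide range. Divided by the length of the exons of each gene, untreated cells had 10405 normalised reads per kb for Tagln, 7419 for Acta2, 4957 for Tpm2, 3159 for Tpm1, 2674 for Cnn2, 686 for Myl9, 204 for Myh9 and 91.9 for Cnn1. At 72 h of RA the order per kb began with Tpm1 (8533), followed by Tagln (7271), Acta2 (7001) and Tpm2 (5127). Whether dividing by length is right depends on the library type. The labels describe tags beside DpnII sites, for which length does not enter, and the methods describe fragmented RNA, for which it does. Without the division Tpm1 was the highest of the 8 in every library.

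Tpm1 (ENSMUSG00000032366, chromosome 9, 66870397 to 66897213 on the minus strand of NCBIM37) encodes the alpha-tropomyosin, with 16 annotated coding transcripts that the table does not separate. It had 19989, 18923 and 22547 normalised reads in untreated replicates 1 to 3. It had 55334, 53627 and 45846 at 12 h of RA, and 55334 in both libraries at 72 h. The lowest RA library was thus more than 2 times the highest untreated library, and the groups did not overlap. The log2 change was 1.33 ± 0.12 (SE) at 12 h (limma adjusted p 1.67e-05) and 1.44 ± 0.14 at 72 h (adjusted p 1.68e-05), and it was 1.24 and 1.51 within side 1 and 1.27 and 1.30 within side 2. The difference between 72 h and 12 h was 0.11, with a 95% interval from -0.19 to 0.40 (adjusted p 0.761), so a further rise after 12 h was not shown. By rank, Tpm1 moved from places 31 to 40 of the 22200 genes in untreated cells to places 9 to 14 in RA. The equal values in 3 RA libraries are the value that quantile normalization gives to rank 9. The spread at 72 h, an SD of 0 between the libraries, is therefore not a measured precision. From this rank a further rise in reads shows only where Tpm1 passes another gene, which limits the comparison of the RA times.

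The promoter window of Tpm1 is shown because it is the gene that was called, and those of Acta2 and Myl9 because they hold the same or another element known from contractile genes but did not rise with it. Each window runs from 250 bases before to 50 after the gene start in RefSeq (GRCm38.p6), in the direction of the gene. The values do not separate the 16 coding transcripts of Tpm1, so whether those that rose start at this window cannot be told. Capitals mark GGAATG on either strand, the core of the MCAT element bound by TEAD factors, and the CArG box of SRF.
Tpm1, chr9:67049164-67049463, minus strand: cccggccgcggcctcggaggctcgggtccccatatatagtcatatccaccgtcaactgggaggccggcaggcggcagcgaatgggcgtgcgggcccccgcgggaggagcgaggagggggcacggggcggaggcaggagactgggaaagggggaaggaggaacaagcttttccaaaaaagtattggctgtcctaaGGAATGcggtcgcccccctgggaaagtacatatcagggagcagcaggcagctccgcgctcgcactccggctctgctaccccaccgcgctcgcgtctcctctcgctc
Acta2, chr19:34255324-34255623, minus strand: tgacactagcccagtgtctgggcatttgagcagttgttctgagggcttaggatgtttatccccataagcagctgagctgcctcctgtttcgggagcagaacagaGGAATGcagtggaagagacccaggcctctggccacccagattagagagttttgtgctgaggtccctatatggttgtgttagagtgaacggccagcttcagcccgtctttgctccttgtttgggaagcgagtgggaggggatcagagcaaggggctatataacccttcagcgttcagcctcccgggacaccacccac
Myl9, chr2:156775214-156775513, plus strand: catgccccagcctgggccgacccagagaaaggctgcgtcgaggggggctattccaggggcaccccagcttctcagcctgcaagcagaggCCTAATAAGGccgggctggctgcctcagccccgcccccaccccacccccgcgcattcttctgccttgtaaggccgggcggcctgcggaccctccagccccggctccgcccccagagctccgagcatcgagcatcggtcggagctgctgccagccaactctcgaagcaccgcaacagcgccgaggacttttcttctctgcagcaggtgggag

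RefSeq windows were matched for 7 of the 8 genes, Tagln being the exception. GGAATG was found in 2 of the 7, 56 bases before the start of Tpm1 and 146 bases before that of Acta2, and in 14.7% of the 32851 promoter windows of the genome. A CArG box, searched as CC and GG around 6 bases that are each A or T, with no mismatch, was found in 2 of the 7, Myl9 (CCTAATAAGG, 161 bases before the start) and Cnn2 (CCTTATAAGG, 56 bases before), and in 1.63% of all windows. CArG elements with a mismatch, which the Acta2 promoter is known to carry, were neither counted nor put in capitals. The windows were not searched for these, and ccatatatag in that of Tpm1 is such a stretch. The half-site AGGTCA of RA receptors, searched on both strands, was found in 0 of the 7 and in 16.3% of all windows. These sites do not overlap each other. The GGAATG shared by Tpm1 and Acta2 therefore lay in a gene that was called and in one that did not pass the test. A match is a description of letters, not of binding.

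Tpm2 (ENSMUSG00000028464, chromosome 4, 43527583 to 43536637), which encodes the beta-tropomyosin, had 14697, 12851 and 15713 normalised reads in untreated cells. It had 15713, 15999 and 15846 at 12 h and 15713 and 14117 at 72 h. The groups overlapped at both times, with log2 changes of 0.14 ± 0.11 (95% interval -0.094 to 0.38, adjusted p 0.554) and 0.052 ± 0.12 (-0.21 to 0.31, adjusted p 0.847). Tpm4, a non-muscle tropomyosin, stood at 13670 ± 2464 (SD, n = 3), 12485 ± 950.0 (n = 3) and 12800 ± 2683 (n = 2). The intervals of Tpm2 exclude a change of the size seen for Tpm1.

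The balance of tropomyosins was compared within each library. The values are set by rank, so these ratios also depend on the quantile normalization. Replicate 1 of RA 12 h and replicate 1 of RA 72 h gave the same Tpm1 to Tpm2 ratio because the genes held ranks 9 and 52 in both. The log2 ratio of Tpm1 to Tpm2 was 0.44, 0.56 and 0.52 in untreated cells, 1.82, 1.74 and 1.53 at 12 h and 1.82 and 1.97 at 72 h. All RA libraries were above all untreated libraries, by 1.19 on average at 12 h and 1.39 at 72 h. The ratio of Tpm1 to Tpm4 rose by 1.45 and 1.53 in the same way, from 0.28 to 1.05 in untreated libraries to 1.76 to 2.34 in RA libraries. In an exact two-sided permutation test each of these gave p = 0.10, the smallest these groups allow, and 0.171 after Benjamini-Hochberg adjustment over 12 comparisons of 6 ratios. A permutation of 3 untreated libraries against the RA libraries of 1 time cannot reach 0.05.

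**Figure D2:**
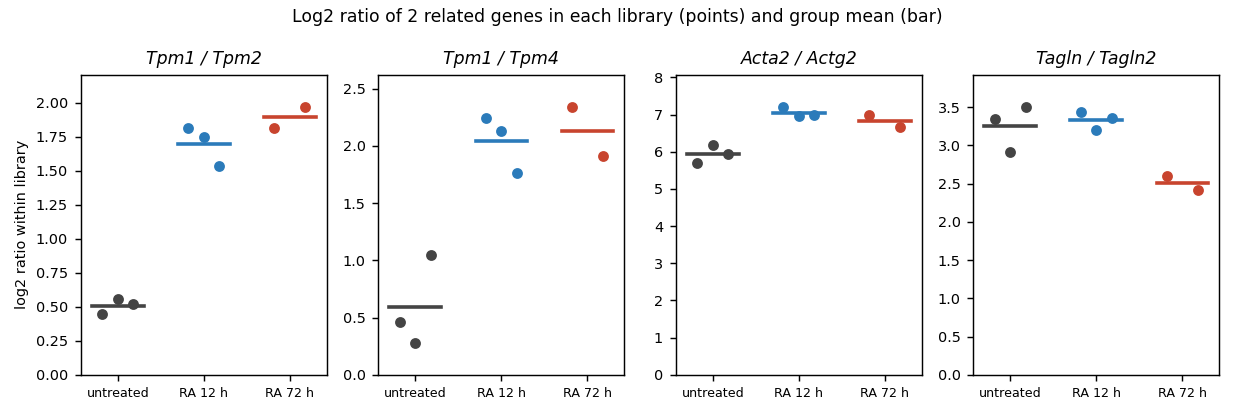
Log2 ratio of normalised reads of related genes (vertical axes, from 0) in each of the 8 libraries (points), with group means (bars). Tpm1 to Tpm2, Tpm1 to Tpm4 and Acta2 to Actg2 were higher in every RA library than in every untreated library, and Tagln to Tagln2 was lower in both RA 72 h libraries.

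Acta2 (ENSMUSG00000035783, chromosome 19, 34315580 to 34329826), the smooth muscle alpha-actin, had 11560, 13684 and 14397 normalised reads in untreated cells. It had 15233, 14397 and 14047 at 12 h and 12683 and 12253 at 72 h. Untreated libraries overlapped both RA groups, and the RA groups did not overlap each other. The log2 changes were 0.15 ± 0.11 at 12 h (95% interval -0.092 to 0.38, adjusted p 0.545), -0.078 ± 0.12 at 72 h (-0.34 to 0.19, adjusted p 0.762) and -0.22 ± 0.12 between the times (-0.49 to 0.042, adjusted p 0.366). These intervals leave out any change of 1.5-fold or more in Acta2.

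The gamma smooth muscle actin Actg2 behaved otherwise. It had 223, 188 and 234 normalised reads in untreated cells, 103, 115 and 111 at 12 h and 100 and 122 at 72 h. It fell by 0.96 on the log2 scale at 12 h (SE 0.14, adjusted p 0.0011) and by 0.95 at 72 h (SE 0.16, adjusted p 0.00151), just short of 2-fold. The log2 ratio of Acta2 to Actg2 went from 5.94 ± 0.25 (SD, n = 3) in untreated cells to 7.05 ± 0.14 at 12 h and 6.82 ± 0.23 at 72 h (n = 2), a difference of 1.11 and 0.88 with an exact permutation p of 0.10, the smallest possible, at each time. These actins are near-identical in sequence, and how reads shared by such genes were counted is not given in the sources used here. The cytoplasmic actins show a wide gap of this kind, Actg1 standing at 45846 to 60831 normalised reads and Actb at 384 to 621.

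Tagln (ENSMUSG00000032085, chromosome 9, 45737711 to 45744141) encodes transgelin (SM22-alpha), an actin cross-linker and early smooth muscle marker. It had 15625, 17474 and 16406 normalised reads in untreated cells, 13529, 12344 and 13206 at 12 h and 10646 and 12418 at 72 h. All 5 RA libraries were below all untreated libraries. It fell by 0.52 on the log2 scale at 72 h (SE 0.12, adjusted p 0.0114). Side 1 alone gave -0.41 and side 2 -0.62. Its change at 12 h was -0.34 ± 0.11 (adjusted p 0.103). Without RA 72 h replicate 1 the 72 h change was -0.41 with an adjusted p of 0.170. Its paralog Tagln2 stood at 1764 ± 478 (SD, n = 3) in untreated cells, 1296 ± 45.0 at 12 h and 2040 ± 404 at 72 h (n = 2), and did not pass the test in any comparison. The log2 ratio of Tagln to Tagln2 was 0.75 lower at 72 h than in untreated cells (exact permutation p = 0.20).

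The calponins, inhibitors of the myosin ATPase on actin, differed in level more than in response. Cnn1 (ENSMUSG00000001349, chromosome 9, 21903725 to 21914074), the form typical of differentiated smooth muscle, had 214, 244 and 195 normalised reads in untreated cells, 244, 269 and 285 at 12 h and 228 and 344 at 72 h. Its log2 changes were 0.29 ± 0.15 (adjusted p 0.384) and 0.37 ± 0.17 (adjusted p 0.214), and the libraries at 72 h differed more from each other than the group means did. Cnn2 (ENSMUSG00000004665, chromosome 10, 79451329 to 79458807), the widely expressed form, had 6291, 6173 and 7274 in untreated cells, 8739, 7786 and 7089 at 12 h and 7274 and 6707 at 72 h. It overlapped between all groups, with changes of 0.26 ± 0.11 (adjusted p 0.264) and 0.090 ± 0.12 (adjusted p 0.720). Cnn3, the third calponin, rose at 12 h, from 7551 ± 1006 to 11755 ± 1745 (SD, n = 3 each; log2 change 0.64, adjusted p 0.0112), and was at 8829 ± 308 at 72 h. With the side of the shared axis as a term, Cnn1 passed at 12 h (0.39, adjusted p 0.0429) and 72 h (adjusted p 0.0214). At each time this was the 1 fit of 14 others in which it passed. The sides were drawn from the deviations of these same libraries, so p-values of this fit may be too low.

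The myosin subunits moved at different times. Myl9 (ENSMUSG00000067818, chromosome 2, 156601156 to 156607394) encodes the regulatory light chain of smooth muscle and non-muscle myosin. It had 838, 884 and 670 normalised reads in untreated cells, 850, 867 and 920 at 12 h and 517 and 632 at 72 h. Both 72 h libraries were below all 6 others. It fell by 0.47 at 72 h against untreated (SE 0.14, adjusted p 0.0412) and by 0.62 against 12 h (SE 0.14, adjusted p 0.0173) on the log2 scale, while the change at 12 h was 0.15 ± 0.12 (adjusted p 0.583). Within the sides the differences from untreated were -0.45 and -0.37, and those from 12 h -0.54 and -0.73.

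The adjusted p of Myl9 against untreated stayed below 0.05 in 4 of 14 other fits. Leaving out replicate 1 or 2 of the untreated cells, any RA 12 h library or replicate 1 of RA 72 h took it above 0.05 (0.390 at the highest), as did a fit with no filter on low values, with no variance trend or with only the 2 groups compared. Against 12 h it held in 9 of 14 fits, and rose above 0.05 when any RA 12 h library or replicate 1 of RA 72 h was left out (0.202 at the highest) and with no variance trend. The log2 change kept its sign in all of these fits.

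Myh9 (ENSMUSG00000022443, chromosome 15, 77591017 to 77672605) encodes the heavy chain of non-muscle myosin IIA, the main motor of fibroblast stress fibres. It had 2708, 2230 and 2965 normalised reads in untreated cells, 4182, 3830 and 3467 at 12 h and 3158 and 3090 at 72 h. The groups followed each other without overlap, untreated lowest and 12 h highest. It rose by 0.54 ± 0.12 on the log2 scale at 12 h (adjusted p 0.0156), side 1 giving 0.50 and side 2 0.43. At 72 h the change was 0.26 ± 0.13 (adjusted p 0.257), and the difference between the times was -0.29 ± 0.13 (adjusted p 0.251). The adjusted p at 12 h went above 0.05 when replicate 1 or 2 of either group was left out (0.101 at the highest) and in a fit with no variance trend. Myh10, the heavy chain of myosin IIB, did not pass the test, and the log2 ratio of Myh9 to Myh10 was 0.35 higher at 12 h than in untreated cells (exact permutation p = 0.10).

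**Figure D3:**
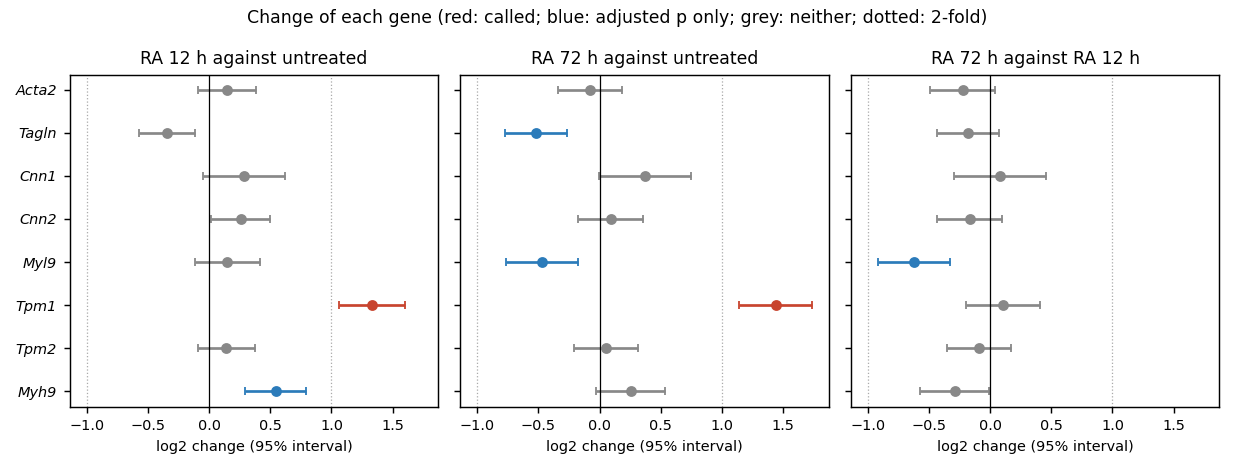
Log2 change (horizontal axes) of each of the 8 genes in the 3 comparisons, with the 95% interval from limma; red marks called genes, blue those with an adjusted p below 0.05 only, and dotted lines 2-fold. Tpm1 lies beyond 2-fold at 12 h (1.33) and 72 h (1.44), and the other 7 genes lie within 2-fold in all comparisons.

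The 8 genes did not follow one profile over the libraries. Among their 28 pairs, Pearson's r of the log2 values over the 8 libraries was above 0.8 for 3 pairs, Cnn2 with Myh9 (0.910), Tpm2 with Myh9 (0.806) and Tpm1 with Myh9 (0.803), and below -0.8 for 1, Tagln with Tpm1 (-0.904). Acta2 and Tagln, both classical markers of the smooth muscle programme, had an r of 0.092. These values share the group differences and the axis within groups, so they describe these libraries only. The tested genes most like Tpm1 were Aifm2 (r = 0.996), Amotl1 (0.994) and Tnfaip3 (0.994). Amotl1, an angiomotin that binds YAP, went from 1133 normalised reads in untreated cells to 2238 at 12 h and 2338 at 72 h, and Tnfaip3, a feedback inhibitor of NF-kappaB signalling, from 192 to 713 and 718. Those most like Tagln were Gstt3 (0.986), Adamts10 (0.978) and Parp11 (0.976), those like Myl9 included Fbxo2 (0.994) and Pkp2 (0.972), and those most like Acta2 Uba3, Slc10a7 and Kars (0.980 to 0.986). The nearest profiles to Cnn1 were those of Tmem184b, Rnf10 (0.967) and Tuba1b (0.966), and to Cnn2 those of Mrpl34, Decr1 and Lrp12 (0.983 to 0.991). For Tpm2 they were Rtn1, Rorb and Hs3st2 (0.965 to 0.984), all at low levels, and for Myh9 they were Apaf1, Vav3 and 2410012H22Rik (0.970 to 0.980).

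The wider contractile system was then described from 4 lists. Of 21 other smooth muscle genes, 18 were tested and 0 were called at any time by limma, with 7 at an unadjusted p under 0.05 at 12 h and 6 at 72 h. Over all 12673 genes, 2065 had such a p at 12 h and 3030 at 72 h. On the adjusted p, 1 fell at 12 h (Actg2) and 5 fell at 72 h, with 0 rising. Besides Actg2 these were Ppp1r14a, an inhibitor of myosin phosphatase (115 ± 21.4 to 57 ± 7.95 normalised reads, log2 change -0.98), Nexn, an actin-binding protein (238 ± 24.7 to 126 ± 9.72, -0.91), the LIM protein Csrp2 (2458 ± 332 to 1461 ± 249, -0.75) and Fhl1 (5535 ± 532 to 3992 ± 307, -0.47), each SD over 3 and 2 libraries. The background for falls on the adjusted p was 1.50% at 12 h and 5.41% at 72 h. The list medians were 0.010 and 0.044, so the falls were not shared by the list. Caldesmon (Cald1), which blocks myosin on actin, ranged from 10474 to 14697 in untreated cells, 13471 to 20918 at 12 h and 9234 to 12851 at 72 h, and did not pass (-0.67 between the times, adjusted p 0.0705). Nor did Itga8, an integrin subunit of smooth muscle, whose values ran from 12.4 to 21.6 in untreated cells and 20.9 to 30 at 12 h (0.62, adjusted p 0.345).

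The list of paralogs and related light chains leaves out Actg2, which fell at both times, and Myh11, as both stand in the list above. Of its 15 genes, 13 were in the table by symbol or identifier (Myl6 and Myl12a were not matched). Of these, 10 were tested, and 0 were called by limma at any time, with 2 at an unadjusted p under 0.05 at 12 h and 2 at 72 h. Cnn3 rose at 12 h and the light chain Myl6b at 72 h (81.6 ± 8.55 to 140.1 ± 3.98, log2 change 0.78, adjusted p 0.00723), which is 1 of 10 each time, against 2.87% and 6.08% of all genes. The light chain Myl12b, listed as Mylc2b, had its largest change at 72 h (1.06, adjusted p 0.141) from a low level.

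Among 20 stress fibre and adhesion genes, 0 were called by limma, with 6 at an unadjusted p under 0.05 at 12 h and 9 at 72 h. On the adjusted p, 3 rose and 1 fell at 12 h, and 2 rose and 1 fell at 72 h. Over all genes 2.87% rose and 1.50% fell at 12 h, and 6.08% and 5.41% at 72 h. Talin (Tln1, 0.40), Fhl2 (0.46) and Tes (0.48) rose at 12 h, and the zyxin gene Zyx fell from 6098 ± 397 to 4395 ± 391 (-0.47, adjusted p 0.0278). At 72 h Zyx stood at 7376 ± 1087, higher than at 12 h by 0.74 (adjusted p 0.00341). Palladin (Palld), an actin scaffold, rose at 72 h from 625 ± 74.6 to 950.0 ± 35.2 (0.61), Lima1 rose by 0.38, and vinculin (Vcl) fell by 0.42. The adhesion adaptor paxillin (Pxn) overlapped between the groups, with 615 ± 146 at 12 h and 871 ± 244 at 72 h (0.50, adjusted p 0.289).

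The regulators held the only other calls of the 4 lists. Of 18 symbols for SRF, its cofactors and small GTPase signalling to actin, 19 rows were tested, since Mkl2 has 2 identifiers. Diap3, a formin that elongates actin filaments, was called higher at 72 h against both groups, from 895 ± 59.3 in untreated cells and 947 ± 11.3 at 12 h to 1904 ± 88.1 (1.09, adjusted p 1.5e-05, and 1.01). Rhob was called lower at 72 h against 12 h, from 136 ± 20.2 to 65.5 ± 18.2 (-1.06, adjusted p 0.0161). Rnd3, a small GTPase that promotes loss of stress fibres, fell at both times (1901 ± 254 to 1121 ± 94.5 and 1007 ± 70.2; -0.76 and -0.91), while Rhoc (0.52 and 0.61) and the kinase Rock2 (0.57 and 0.80) rose at both. Arhgef2 rose at 12 h (0.44, adjusted p 0.0336). The kinase gene Limk2 stood at 143 ± 15.3 in untreated cells, 113 ± 11.5 at 12 h and 83.4 ± 13.3 at 72 h. Its 72 h change against untreated was -0.68 within side 1 and -0.82 within side 2. Limk1 stood at 287 ± 29.7, 223 ± 40.6 and 215 ± 6.28. Srf stood at 497 ± 13.5, 523 ± 59.0 and 480 ± 34.5 and did not pass the test. The SRF cofactor Mkl1 fell at 12 h from 1346 ± 97.8 to 944 ± 73.6 (-0.51, adjusted p 0.0154). In all, 3 of the 19 rose and 2 fell at 12 h, and 3 rose and 2 fell at 72 h, against 4.37% of all genes passing in either direction at 12 h and 11.5% at 72 h. The 1 call at 72 h and the 2 between the times stand against 3.67% and 1.50% of all genes.

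**Figure D4:**
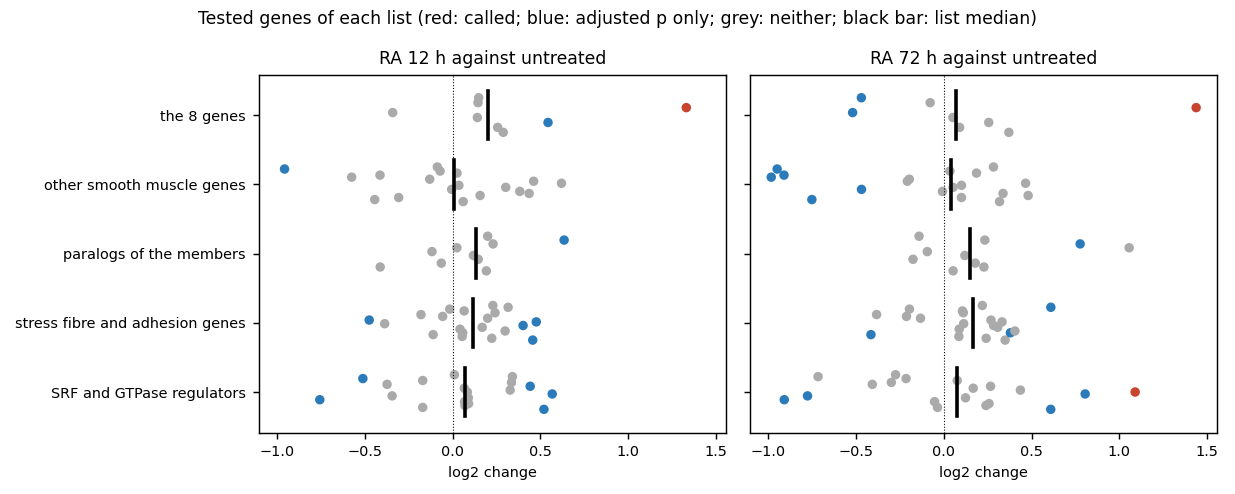
Log2 change at 12 h and 72 h (horizontal axes) of every tested gene of the 8 genes and of the 4 other lists (rows), with black bars at the list medians; red marks called genes and blue those with an adjusted p below 0.05 only. Tpm1 is the point farthest to the right in both panels, and the list medians lie between 0.010 and 0.20.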

How the data were processed

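The deposited data are 1 table in which the authors gave the normalised reads of each Ensembl gene in each library, the group averages and the log2 ratios of these. The averages and ratios hold the authors' own comparison and were not used. Per the labels the build was mm9 and the libraries were DpnII tag profiling libraries. The methods describe fragmented RNA, Tophat and Cufflinks, and also give another later time than the 72 h of the labels. The results text of the study gives 72 h, as the labels do, and 72 h was followed. The sorted values of the 8 columns were identical, so the deposited values are quantile normalised, which the methods do not state. No count test was used. The 1 line that named no gene was dropped. The depth of the libraries is unknown, and no counting interval can be given.

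Values were taken as log2(value + 1) and genes with a mean of at least 10 were fitted with limma 3.58.1 (R 4.3.3) with a variance trend, all 3 groups in one model, and two-sided p-values of all 12673 genes were adjusted together (Benjamini-Hochberg). Fold changes of low genes are understated by the pseudocount. The fit was tested on simulated data. Alternatives were a pseudocount of 10, no filter, no variance trend, a replicate block, each library left out, the side of the shared axis as a term, other fold minimums and fits of 2 groups. The sides were assigned from the sign of the first principal component of the within-group deviations. The side term was thus fitted to the spread it was drawn from, and p-values of that fit may be too low.

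The genes and lists were chosen with earlier results of these data known. Named were the 8 genes; from each other list the called genes and the 2 with the largest change in each comparison; and for each of the 8 the 3 genes with the most similar profile, of which 1 is not reported here. Other genes named from the lists (such as Tln1, Fhl2, Lima1, Csrp2, Fhl1, Rhoc, Mkl1, Srf and Tpm4) were chosen after their values were seen. Coordinates are 1-based from GENCODE vM1 on NCBIM37 (mm9). Promoter windows are from RefSeq on GRCm38.p6.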

Additional observations from a re-analysis of the deposited data

Results flagged for a closer look

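Myl9 was singled out because its changes at 12 h and at 72 h, measured against the same untreated libraries, differed by the test between the RA times, with a log2 difference of -0.62 (limma adjusted p 0.0173). Both 72 h libraries were below all 3 libraries of 12 h. The contrasts share the untreated libraries.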

How the results depend on the processing

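Tpm1 was called at 12 h and at 72 h in each of the 14 other fits, with log2 changes from 1.28 to 1.41 and from 1.38 to 1.51. It was not called with a 3-fold minimum, which left 0 of the 8 genes at both times (47 genes higher and 12 lower at 12 h, 98 and 67 at 72 h, 17 and 24 between the times). With no fold minimum, 2 of the 8 genes were higher at 12 h, 2 lower at 72 h and 1 lower between the times (364 and 190, 771 and 685, and 370 and 370 genes, against 141 and 39, 272 and 193, and 97 and 93 with it). A pseudocount of 10 left 122 genes lower at 72 h. Leaving out 1 library gave 117 to 241 genes higher and 28 to 81 lower at 12 h, the highest of both without untreated replicate 3, and 220 to 393 and 137 to 248 at 72 h. It gave 69 to 103 and 76 to 108 between the times. With 1 library left at 72 h, that library is assumed to vary like the others. Signs turned, without a call, for Tpm2 at 72 h without untreated replicate 2 (-0.029) or RA 72 h replicate 1 (-0.026; up to 0.13 without another library) and for Cnn1 between the times without RA 72 h replicate 2 (-0.21; up to 0.38); the cause was not tested. Deviations of same-numbered libraries correlated between -0.474 and 0.420 in 7 pairs, with 2 above 0.1. These values cannot decide whether the replicate numbers pair the libraries. The deviations were taken from the means of groups of 3 or 2 libraries, so those of the 72 h libraries mirror each other. A block for the replicate number gave 139 and 35 genes higher and lower at 12 h, 264 and 166 at 72 h and 89 and 83 between the times, with Tpm1 the called gene of the 8 at 12 h and 72 h and an adjusted p of 0.0609 for Myl9 at 72 h. The fall of Tagln at 72 h lost its adjusted p without a filter and without RA 72 h replicate 1. Its change at 12 h passed in 1 of 14 other fits, that with the side as a term (adjusted p 0.0309). The sides of that fit were drawn from these same values.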
